A study of Mus musculus with 18 samples.

Results

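Spleens of mice with a mammary tumour were compared with spleens of healthy mice. The comparison rests on 6 of the study's 18 Drop-seq libraries, chosen by their tissue label. Each status gave 3 of them, 1 at each of days 7, 14 and 21 after the injection of tumour cells. Drop-seq pairs single cells with barcoded beads in droplets, so that each RNA molecule is counted as a unique molecular identifier (UMI) and assigned to a cell barcode. All donors were female BALB/cJ mice, aged 9, 10 and 11 weeks at the 3 days. Tumour-bearing mice carried 4T1-tdTomato-luc2, a mouse mammary carcinoma line with a fluorescent and a luciferase reporter, of which 2000000 cells had been placed in a mammary fat pad. Healthy mice had received no tumour cells, and the labels name no sham injection. The remaining libraries, 6 of lung and 6 of implanted scaffold, entered the estimate of the spread between libraries and the contrasts between tissues. They also took part in the filters on barcodes and genes, the scaling of libraries and the clustering of cells. The labels state neither the number of animals per library nor whether spleen donors carried an implant. The 3 libraries of a status are of different days, and the p-values measure the spread between libraries, part of which may be technical.

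The spleen filters blood in its red pulp, where macrophages recycle red blood cells, and holds B and T lymphocytes in its white pulp. In mice it can also support the formation of blood cells outside the bone marrow. Neutrophils, the short-lived phagocytes of the blood, pack their granules in sequence: azurophil granule proteins such as elastase and myeloperoxidase are made by early precursors, specific granule proteins such as lactoferrin by later ones, and surface receptors for chemokines come last. The 4T1 tumour is known for raising granulocytes in blood and spleen.

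The 4 azurophil protein genes that lead the results below are shown with the 250 bases before their start, since their RNAs moved together. Sequences were taken from RefSeq (GRCm38.p6) and are written 5′ to 3′ on the strand of the gene. Capitals mark GAGGAA, a motif bound by the myeloid factor PU.1. Both strands were searched, and the matches here are on the printed strand. Elane lies at chr10:79886312-79888216 on the plus strand and its window at chr10:79886062-79886311. Prtn3 lies beside it at chr10:79879667-79883174, also on the plus strand, with its window at chr10:79879417-79879666. The Mpo window is chr11:87793534-87793783 on the plus strand, and the Ctsg window is chr14:56102575-56102824 on the minus strand.
Elane: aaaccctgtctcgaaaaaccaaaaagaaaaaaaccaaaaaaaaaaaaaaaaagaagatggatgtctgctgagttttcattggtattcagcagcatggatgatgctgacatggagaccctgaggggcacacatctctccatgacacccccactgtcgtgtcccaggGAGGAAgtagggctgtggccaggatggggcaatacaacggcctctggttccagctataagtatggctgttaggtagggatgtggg
Prtn3: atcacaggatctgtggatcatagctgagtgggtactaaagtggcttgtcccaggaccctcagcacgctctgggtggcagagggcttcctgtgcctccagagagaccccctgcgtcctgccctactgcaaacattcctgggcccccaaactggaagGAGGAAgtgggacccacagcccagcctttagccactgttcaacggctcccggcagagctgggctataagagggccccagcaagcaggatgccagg
Mpo: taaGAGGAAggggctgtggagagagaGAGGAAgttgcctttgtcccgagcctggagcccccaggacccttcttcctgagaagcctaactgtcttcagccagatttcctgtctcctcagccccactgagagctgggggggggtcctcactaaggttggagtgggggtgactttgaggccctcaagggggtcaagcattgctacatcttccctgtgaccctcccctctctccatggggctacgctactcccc
Ctsg: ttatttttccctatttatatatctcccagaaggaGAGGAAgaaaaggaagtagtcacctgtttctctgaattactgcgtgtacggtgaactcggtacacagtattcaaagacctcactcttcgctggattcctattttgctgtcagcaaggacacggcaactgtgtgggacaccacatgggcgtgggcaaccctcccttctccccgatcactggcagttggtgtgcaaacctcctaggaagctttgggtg
GAGGAA stood once in the windows of Elane, Prtn3 and Ctsg and 2 times in that of Mpo. It stood in 5 of the 9 azurophil granule genes that have such a window, in 7 of 13 specific granule genes, and in 23.4% of all 32536 windows of this length in the table. The C/EBP motif TTGCNNAA stood in none of the 4 windows, in 2 of the 9 azurophil and 7 of the 13 specific granule windows, and in 9.6% of all windows. The motifs did not overlap in the 4 windows. A match describes these letters and was not tested as a binding site.

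The spleen tables held 8348 barcodes and 10581110 UMIs, of which 6574 barcodes and 9515191 UMIs were kept. Healthy libraries kept 331, 1135 and 27 barcodes with 553900, 1184460 and 19698 UMIs at days 7, 14 and 21. Tumour-bearing libraries kept 1018, 2598 and 1465 barcodes with 1491634, 3558776 and 2706723 UMIs. The healthy library of day 21 stood apart: 422 of its 513 barcodes (82.3%) were also present in the tumour-bearing spleen library of that day. The pair shared 177 of 555 healthy barcodes (31.9%) at day 7 and 40 of 1225 (3.27%) at day 14. A barcode held by 2 or more libraries of a day was kept only where 1 library had at least 5-fold more UMIs for it than any other. This removed 93.3% of the UMIs of the healthy library of day 21, against 1.22% to 10.5% in the other spleen libraries. Results are therefore given with and without the day 21 pair. The median share of mitochondrial UMIs per kept barcode was 9.26%, 8.81% and 7.67% in healthy and 9.50%, 6.57% and 2.75% in tumour-bearing spleen. Its part in the results was not tested. Levels below are UMIs per 1000000 kept UMIs of a library (CPM), always in the order of days 7, 14 and 21.

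The first question was which genes differed between tumour-bearing and healthy spleen. Of 10943 genes tested, 476 (4.35%) were higher and 22 (0.201%) were lower in tumour-bearing spleen at an adjusted p under 0.05, together 498 (4.55%). Counts of called members in the lists below are to be read beside these shares, above all in short lists. The median log2 fold change of all genes was 0.10. Leaving out the day 21 pair, 259 genes (2.24%) were higher and 2 (0.0173%) lower, which is 2.25% of 11583 genes, and 257 of these 261 genes were among the 498. The count rested on day 14: without that pair 37 genes were higher and 1 lower of 11511 tested. Of the 72 called genes chosen for naming, 24 stayed called without the day 14 pair, and 48 with shared barcodes kept in every library. Without the day 7 pair 630 were higher and 192 lower. The 3 tumour-bearing libraries lay above all 3 healthy ones in 1047 genes (9.57%) and below them in 579 (5.29%). Most genes named below were chosen because they were called, so a lack of overlap among them adds no support. Values are sums over all cells of a library, so more cells of a type and more RNA per cell cannot be told apart.

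Genes of azurophil granules rose in tumour-bearing spleen. Of the 11 genes of this list 10 passed the filter on low counts and 10 of these were called higher, with a median log2 fold change of 4.00; Gfi1 did not pass the filter. Of the 10, 8 were called without the day 21 pair and 5 without the day 14 pair. Prtn3, which encodes proteinase 3, stood at 0, 50.7 and 0 CPM in healthy and at 112, 1014 and 1629 CPM in tumour-bearing spleen. All 3 tumour-bearing libraries lay above the healthy ones, and the log2 fold change was 5.51 ± 0.63 (SE, adjusted p = 0.000157 in edgeR). It was 5.09 without the day 21 pair (adjusted p = 0.00227).

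Ctsg, the gene of cathepsin G, stood at 0, 32.1 and 0 CPM in healthy and at 208, 1194 and 2717 CPM in tumour-bearing spleen (log2 6.43 ± 0.83, adjusted p = 0.000335). Mpo, the gene of myeloperoxidase, stood at 0, 83.6 and 0 CPM against 158, 1193 and 1445 CPM (log2 5.22 ± 0.78, adjusted p = 0.00126). Neither gene overlapped between the groups. Elane, the gene of neutrophil elastase, stood at 0, 139 and 102 CPM in healthy and at 135, 1828 and 2792 CPM in tumour-bearing spleen, so its day 7 tumour-bearing library lay just below the healthy library of day 14. The healthy value of day 21 rests on 2 UMIs. Its log2 fold change was 5.08 ± 0.69 (adjusted p = 0.00065). Without the day as a block, Elane and Mpo did not pass the threshold (adjusted p = 0.0836 and 0.068), whereas Prtn3 and Ctsg did (0.0276 and 0.0166). In DESeq2, Elane, Mpo and Ctsg had adjusted p = 0.122, 0.206 and 0.0595. The other called members were Cebpe, a transcription factor of granule formation (log2 4.10), Ms4a3 (3.90), Mgst1 (2.75), Igsf6 (2.58), Serpinb1a, an inhibitor of the granule proteases (2.40), and Srgn, the proteoglycan serglycin that holds granule contents (1.80).

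Genes of specific granules rose as well: 13 of 15 tested were called higher, with a median of 4.60, and Mmp8 (log2 3.43, adjusted p = 0.0905) and Itgb2l (2.34, adjusted p = 0.269) were not called. Of the 15, 7 were called without the day 21 pair and 3 without the day 14 pair. Lrg1, which encodes a leucine-rich glycoprotein, stood at 5.42, 16.9 and 0 CPM in healthy and at 192, 1076 and 1250 CPM in tumour-bearing spleen (log2 6.24 ± 0.73, adjusted p = 0.000157). Anxa1, the gene of the calcium-binding annexin A1, stood at 117, 74.3 and 355 CPM against 805, 4768 and 7151 CPM (log2 5.03 ± 0.68, adjusted p = 0.000335). Hp (haptoglobin) and Cd177, a neutrophil surface protein, had log2 fold changes of 4.60 ± 0.68 and 5.39 ± 0.92 (adjusted p = 0.000742 and 0.00202). None of these 4 genes overlapped between the groups. Ltf, the gene of lactoferrin, named after its values were seen, stood at 200, 16.0 and 0 CPM against 686, 3891 and 2309 CPM (log2 5.65 ± 1.37, adjusted p = 0.0212), and it was not called without the day 21 pair (adjusted p = 0.211).

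Of 15 genes of mature neutrophils 14 were called higher, with a median of 3.92, and Ccl6 was not (log2 1.16, adjusted p = 0.205). The call held for 10 without the day 21 pair and for 2 without the day 14 pair. S100a8 and S100a9, the paired subunits of calprotectin and named here after their values were seen, did not overlap between the groups. S100a8 stood at 1415, 1261 and 6244 CPM in healthy spleen and at 10130, 70950 and 81060 CPM in tumour-bearing spleen (log2 4.83 ± 0.81, adjusted p = 0.00168). S100a9 stood at 1343, 1621 and 4671 CPM against 10620, 63470 and 98050 CPM (log2 4.94 ± 0.83, adjusted p = 0.00168). Neither was called without the day 21 pair (adjusted p = 0.0511 and 0.0534). Prok2, which encodes the secreted prokineticin 2, had 2 UMIs in all healthy libraries and stood at 28.8, 189 and 44.0 CPM in tumour-bearing spleen, a ratio of 94.5 with a counting interval of 26.1 to 782 (adjusted p = 0.000146). Hdc, the enzyme that makes histamine, stood at 10.8, 19.4 and 0 CPM against 115, 198 and 87.6 CPM (log2 3.70 ± 0.57). G0s2, an inhibitor of fat breakdown, stood at 5.42, 46.4 and 0 CPM against 213, 285 and 210 CPM (log2 3.92 ± 0.62). The highest tumour-bearing library was that of day 14 for Prok2, Hdc and G0s2. It was that of day 21 for Prtn3, Ctsg, Mpo and Elane. The gene listed as 1100001G20Rik, now named Wfdc21, had a log2 fold change of 5.78 ± 0.92 (adjusted p = 0.00126).

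**Figure D1:**
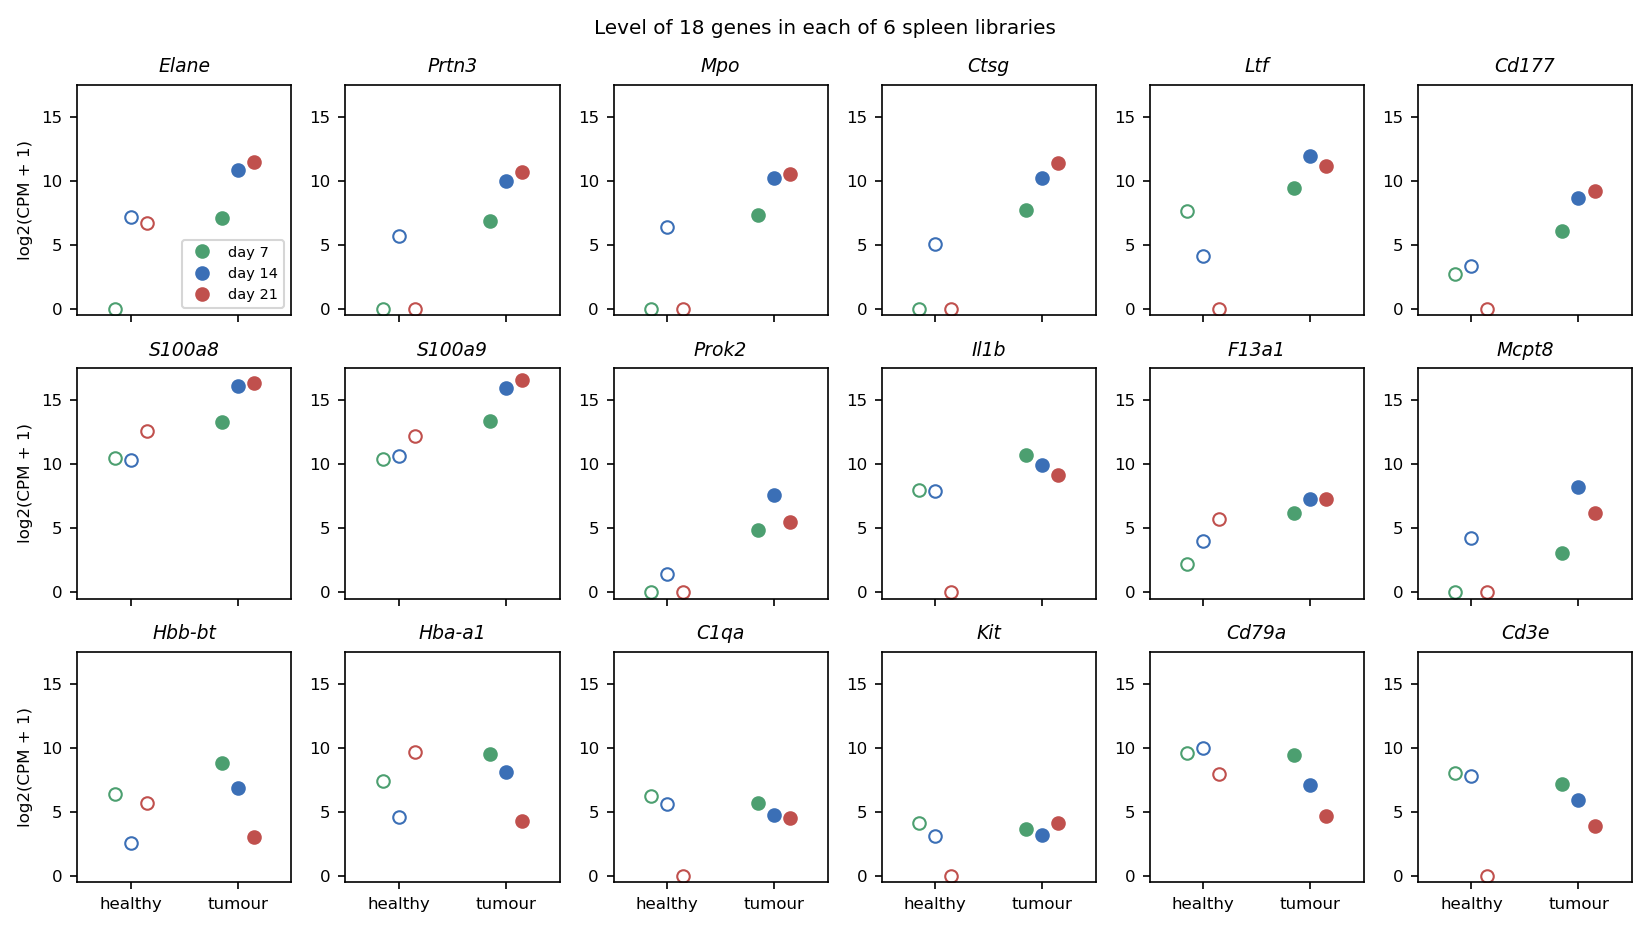
Level of 18 genes as log2(CPM + 1) (y axis) in the 3 healthy (open points) and 3 tumour-bearing (filled points) spleen libraries, coloured by day. Prtn3, Ctsg, Mpo, S100a8 and S100a9 lie higher in every tumour-bearing library than in any healthy one, and Elane overlaps at day 7. Cd79a is lowest in the tumour-bearing library of day 21, and Cd3e in the healthy library of that day (0 CPM).

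Stefin A genes, a clustered mouse family of inhibitors of cysteine proteases, had the highest median of the lists with more than 1 gene tested, 6.25, and 6 of 8 were called higher. Stfa2 had 1 UMI in the healthy libraries and stood at 98.6, 696 and 2669 CPM in tumour-bearing spleen, a ratio of 2232 with a counting interval of 401 to 88180 (adjusted p = 0.00148). Stfa3 likewise had 1 healthy UMI and stood at 8.72, 332 and 1070 CPM (ratio 928, interval 166 to 36650, adjusted p = 0.000163). BC100530 stood at 12.6, 12.7 and 0 CPM against 341, 2678 and 11120 CPM (log2 7.38 ± 1.18). Gm5483 stood at 0, 29.5 and 0 CPM against 87.8, 747 and 4317 CPM (log2 6.12 ± 1.08). Each of these 4 was highest in the tumour-bearing library of day 21. Stfa1 (log2 3.11, adjusted p = 0.315) and Gm5416 (log2 6.38, adjusted p = 0.116) were not called. Of the 8, 3 were called without the day 21 pair and 3 without the day 14 pair. The members are near copies of each other, and how reads shared between them were counted is not given in the sources used here, so the split between members is uncertain.

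Of the 16 called genes with the highest fold changes, 11 had no UMI in any healthy spleen library. Only Lipg of the 11 passed the filter on low counts with the 6 spleen libraries alone. The rest entered through the filter over all 18 libraries, and DESeq2 gave a result only for Lipg, Gpr84 and Fam20c. Lipg, the gene of endothelial lipase, stood at 11.4, 415 and 489 CPM in tumour-bearing spleen, which is at least 213-fold higher than the 3 UMIs that a count of 0 over the healthy group allows (adjusted p = 0.000163). Ppp1r42 was at least 18.4-fold, Gpr84, a receptor for medium-chain fatty acids, at least 13.4-fold, and Dmkn, a secreted protein, at least 11.6-fold higher. The lower bounds of Mcm10, a factor of DNA replication, Fam20c, a kinase of secreted proteins, Mvb12b, Pabpc1l, Nlrx1, Ambp and Tiam2 lay between 4.08-fold and 7.56-fold. Saa3, an acute-phase protein, had 2 UMIs in healthy spleen and stood at 5.36, 134 and 2248 CPM in tumour-bearing spleen, against 0, 0.844 and 50.8 CPM (log2 7.28 ± 1.13, adjusted p = 0.0011). Of its 6567 tumour-bearing UMIs 6084 came from the day 21 library, and the day 7 tumour-bearing library lay below the healthy library of day 21, which held 1 UMI. Its log2 fold change was 7.54 without the day 21 pair (adjusted p = 0.0351) and 4.07 with shared barcodes kept (0.0128), and it was not called without the day 14 pair (0.0743). The counts of 0 depend on the removal of shared barcodes. With these kept in every library, the fitted log2 fold change of Lipg was 5.71 in place of 12.28 and still called. That of Dmkn was 1.82 (adjusted p = 0.201) and that of Fam20c 0.83 (adjusted p = 0.649), and Nlrx1, Pabpc1l and Tiam2 were not called either (adjusted p = 0.108, 0.106 and 0.0594). None of the 11 was called without the day 14 pair, with adjusted p from 0.0613 for Lipg to 0.964 for Nlrx1. For Pabpc1l, Nlrx1 and Tiam2 the call was also lost without the day 21 pair (adjusted p = 0.0895, 0.0718 and 0.0737).

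Among 16 tested genes linked to suppressive myeloid cells 8 were called higher, with a median of 2.20, and 6 of 17 were called without the day 21 pair and 3 without the day 14 pair. Wfdc17 stood at 46.9, 43.1 and 305 CPM in healthy and at 866, 2396 and 1933 CPM in tumour-bearing spleen (log2 4.99 ± 0.63, adjusted p = 0.000191). Cd14, a receptor for bacterial lipopolysaccharide, stood at 5.42, 16.9 and 50.8 CPM against 65.7, 112 and 343 CPM (log2 3.44 ± 0.48). Clec4e, a receptor for damaged cells and mycobacteria, and Il1f9, a cytokine of the interleukin 1 family, had log2 fold changes of 3.31 ± 0.46 and 3.82 ± 0.63. These 4 genes did not overlap between the groups. Arg1, the arginase best known from suppressive macrophages, was nearly absent: 0 UMIs in healthy and 2 in tumour-bearing spleen, with no fold change drawn. Arg2, a second arginase gene, was called (log2 2.67, adjusted p = 0.00437), and Nos2, the inducible nitric oxide synthase, was not (log2 6.08, adjusted p = 0.0673).

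Cytokine and receptor genes of myeloid cells changed in part. Of 18 cytokine and chemokine genes tested 4 were called higher and none lower, and of 15 myeloid receptor genes 7 were called higher. Without the day 14 pair these counts were 4 and 1. Il1b, the gene of interleukin 1 beta, stood at 247, 237 and 0 CPM in healthy and at 1704, 980 and 576 CPM in tumour-bearing spleen, highest at day 7 (log2 3.06 ± 0.54, adjusted p = 0.00225). Osm, the gene of oncostatin M, stood at 5.42, 13.5 and 0 CPM against 148, 137 and 113 CPM (log2 4.17 ± 0.59, adjusted p = 0.000424). Tnfsf14 (log2 2.55) and Ccl9 (1.96) were also called, and Ccl9 was not without the day 21 pair (adjusted p = 0.0553) or with shared barcodes kept (log2 0.03, adjusted p = 0.988). Neither Tnfsf14 nor Ccl9 was called without the day 14 pair (adjusted p = 0.516 and 0.523 in edgeR). The 4 cytokine and chemokine genes called in that setting were therefore not the same 4. Among receptors, C5ar1 for the complement fragment C5a rose by 4.23 ± 0.58, the formyl peptide receptors Fpr2 and Fpr1 by 4.84 ± 0.77 and 4.20 ± 0.67, and the chemokine receptor Ccr1 by 3.24 ± 0.50 on the log2 scale (adjusted p = 0.000335, 0.00126, 0.00126 and 0.0011). All 4 were higher in every tumour-bearing than in any healthy library. Without the day 14 pair C5ar1 stayed called (adjusted p = 0.037), and Fpr2, Fpr1 and Ccr1 did not (adjusted p = 0.141, 0.237 and 0.06).

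Of 13 monocyte genes tested 2 were called higher: F13a1, a coagulation factor subunit (3.61, 15.2 and 50.8 against 71.1, 153 and 156 CPM, log2 3.80 ± 0.49, adjusted p = 0.0002), and Plac8 (log2 1.52, adjusted p = 0.0457), which was not called without the day 21 pair (adjusted p = 0.2). Mcpt8, a protease of basophils, stood at 0, 17.7 and 0 CPM in healthy and at 7.37, 306 and 71.3 CPM in tumour-bearing spleen (log2 4.56 ± 0.70, adjusted p = 0.001). Its day 7 tumour-bearing library lay below the healthy library of day 14, and its call was lost without the day 14 pair (adjusted p = 0.465). Basophil or mast cell-like cells numbered 5 in healthy and 2, 13 and 1 in tumour-bearing libraries (log2 0.63). With finer clusters (Leiden resolution 2) the class took in more cells, 140 of spleen. Of these, 5 were healthy and 9, 84 and 42 tumour-bearing (log2 3.27, adjusted p = 0.0622 in edgeR). Mpo and Ly6c2, markers of the progenitor-like and monocyte-like classes, were then among its 10 leading genes, so the added cells are of uncertain type. Of 5 basophil and mast cell genes tested, Cpa3 (log2 1.57, adjusted p = 0.569 in edgeR), Gata2 (1.35, 0.531) and Cd200r3 (0.04, 0.9955) were not called. Ifitm1, listed with basophils but also expressed by other myeloid cells, stood at 3.61, 16.9 and 0 against 452, 984 and 838 CPM (log2 6.60 ± 0.69, adjusted p = 0.000146). With shared barcodes kept it had 4.41 (adjusted p = 0.0616). The Ifitm genes are close paralogs, and reads could be split between them.

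Haemoglobin genes differed in direction between days. Of 10 erythroid genes tested 1 was called, Hbb-bt, an adult beta globin, at 81.2, 5.07 and 50.8 CPM in healthy and 442, 116 and 7.02 CPM in tumour-bearing spleen (log2 3.28 ± 0.71, adjusted p = 0.00957). Its day 21 tumour-bearing value lay below 2 of the healthy ones, and the call was not stable. The log2 fold change was 1.33 under 10 percent mitochondrial UMIs (adjusted p = 0.437), 1.65 with at least 400 genes per barcode (0.186), 2.27 without the day 14 pair (0.58) and 2.43 without the day as a block (0.426). The call was also lost with library totals alone (adjusted p = 0.0543) and in DESeq2 (0.092). Hba-a1, an adult alpha globin, stood at 168, 23.6 and 812 against 719, 280 and 18.1 CPM and was not called (log2 1.44 ± 1.03, adjusted p = 0.528). Without the day 21 pair 3 erythroid genes were called, Hba-a1 among them (log2 3.03, adjusted p = 0.0149). Hbb-bs, a near copy of Hbb-bt, had a log2 fold change of 1.29 ± 1.15 (adjusted p = 0.633). None of 4 megakaryocyte genes was called, nor at an unadjusted p under 0.05 or in DESeq2, and Pf4, platelet factor 4, had 2 UMIs in healthy and 11 in tumour-bearing spleen. Of 11 stem and progenitor genes 1 was called, the transcription factor Erg (log2 3.62 ± 0.76), and not without the day 21 pair (adjusted p = 0.0516). Kit, the stem cell factor receptor, stood at 16.2, 7.60 and 0 against 11.4, 8.15 and 17.0 CPM (log2 0.22 ± 0.57, adjusted p = 0.904).

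Macrophage and lymphocyte genes showed few calls. Of 16 red pulp macrophage genes 1 was called higher, the metal transporter Slc11a1 (log2 1.97 ± 0.49, adjusted p = 0.0265), which had 0.29 (adjusted p = 0.816) with shared barcodes kept. Over all genes tested 4.35% were called higher. C1qa, a subunit of complement C1q, stood at 74.0, 47.3 and 0 against 51.6, 26.7 and 21.8 CPM (log2 -0.25 ± 0.57, adjusted p = 0.888). None of 16 B cell genes was called in edgeR or DESeq2. Of these, 15 had a negative fold change and 12 were lower at an unadjusted p under 0.05, with a list median of -1.28. Cd79a, a subunit of the B cell receptor, stood at 789, 993 and 254 CPM in healthy and at 698, 137 and 24.0 CPM in tumour-bearing spleen (log2 -1.41 ± 0.53, adjusted p = 0.164). The groups overlapped at day 7, and the values of days 14 and 21 lay below all healthy ones.

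Of 22 T cell genes 3 were called lower and all 22 had a negative fold change, with a median of -1.17. DESeq2 called 7 lower. Without the day 21 pair, without the day 14 pair or with shared barcodes kept edgeR called none, and 11, 4 and 10 were lower at an unadjusted p under 0.05. Trac, the constant part of the T cell receptor alpha chain, stood at 345, 210 and 305 CPM in healthy and at 215, 24.7 and 9.98 CPM in tumour-bearing spleen (log2 -1.96 ± 0.53, adjusted p = 0.0414). Bcl11b, a transcription factor of T cells, stood at 170, 122 and 203 against 102, 16.0 and 2.96 CPM (log2 -1.93 ± 0.50, adjusted p = 0.0329). Cd28, the co-stimulatory receptor, stood at 79.4, 38.0 and 101 against 28.8, 6.18 and 4.43 CPM (log2 -1.92 ± 0.48, adjusted p = 0.0263). Bcl11b and Cd28 did not overlap between the groups. Cd3e, a subunit of the receptor complex, was not called (256, 222 and 0 against 145, 60.4 and 13.7 CPM, log2 -0.97 ± 0.45, adjusted p = 0.285). These values are parts of a library's total, and S100a8 and S100a9 took a larger part of that total in tumour-bearing spleen, so a lower CPM does not show fewer lymphocyte transcripts per spleen.

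The remaining lowest genes were partly immunoglobulin segments. Igkv2-137, a kappa light chain segment, stood at 529, 5.91 and 152 CPM in healthy and at 12.1, 0 and 0.37 CPM in tumour-bearing spleen (log2 -5.63 ± 0.62, adjusted p = 0.000163). Most of its healthy UMIs, 293 of 303, came from the day 7 library. Igkv3-5 likewise had 736 of 748 healthy UMIs in that library (log2 -5.12 ± 1.00, adjusted p = 0.00784). These segments are near copies of others, and a single B cell clone can carry many UMIs. Il27ra, a receptor chain for interleukin 27, stood at 75.8, 70.1 and 102 against 31.5, 8.99 and 0.739 CPM, with no overlap (log2 -2.13 ± 0.52, adjusted p = 0.0213). The call was lost without the day 21 pair (adjusted p = 0.0594), as it was for Stk38l, Traf5, Bpnt1, Oas1c, Ighv3-1 and E330020D12Rik. Of the 12 lowest genes 2 stayed called with shared barcodes kept, Igkv2-137 and Il27ra, and 1 without the day 14 pair, Igkv2-137. In DESeq2 Igkv2-137 and Igkv3-5 were not called (adjusted p = 0.378 and 0.59).

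**Figure D2:**
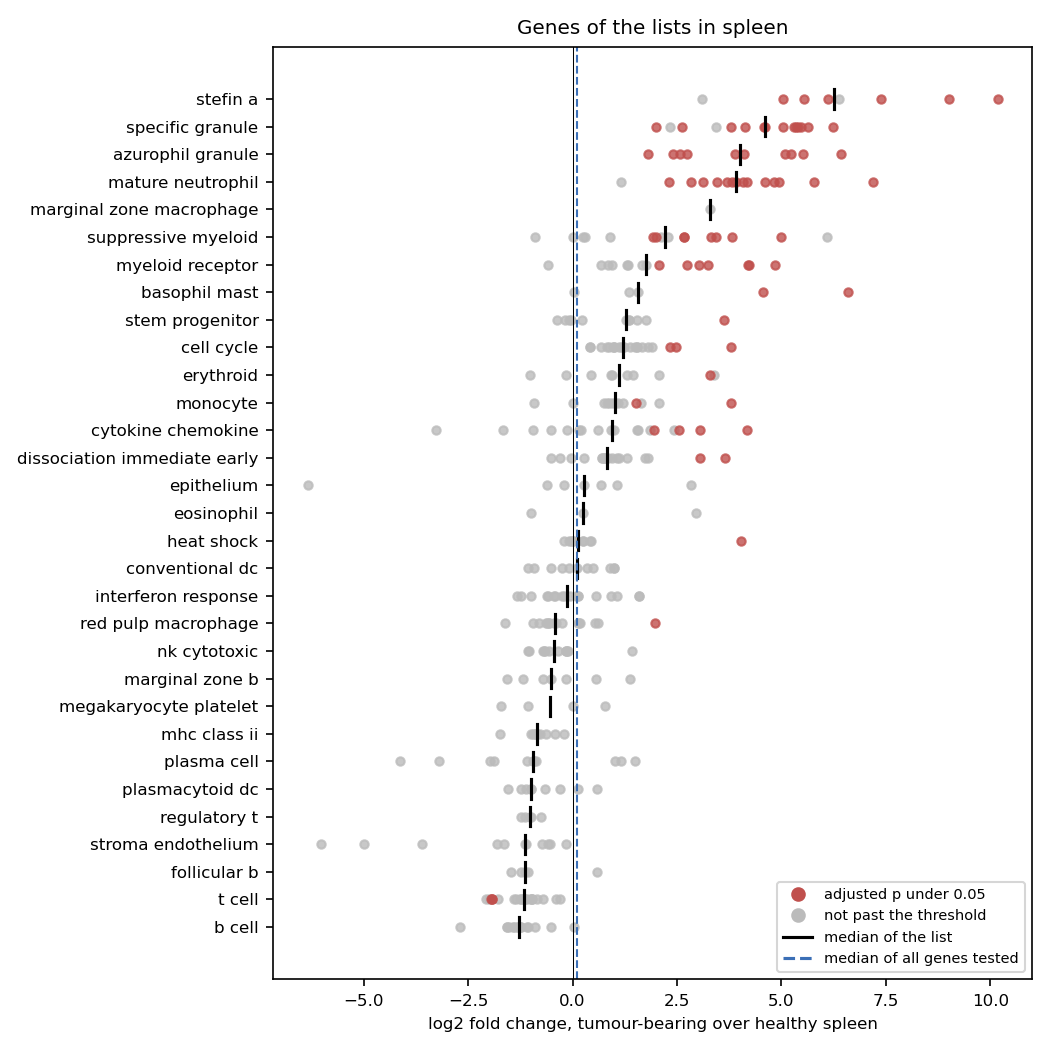
Log2 fold change of tumour-bearing over healthy spleen (x axis) for each tested gene of the lists (rows, ordered by median); red points passed an adjusted p of 0.05, black bars are list medians and the dashed line is the median of all genes, 0.10. The stefin A, specific granule, azurophil granule and mature neutrophil lists lie at medians of 3.92 to 6.25, and the T cell and B cell lists at -1.17 and -1.28.

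Cells were grouped into clusters and named with the ending "-like" where markers allowed, as a second view of the same counts. Neutrophil-like cells were 1.21%, 1.67% and 0% of kept cells in healthy spleen and 10.6%, 17.6% and 27.7% in tumour-bearing spleen. The means were 0.961% ± 0.864 and 18.6% ± 8.60 (SD, n = 3 each), and no library overlapped (log2 3.57 ± 1.08, adjusted p = 0.00679 in edgeR; 2-sided exact permutation p = 0.1, the smallest that 3 against 3 allows). With 27 cells, the limit that a count of 0 allows in the healthy library of day 21 is 11.1% (3 cells). Neutrophil progenitor-like cells were 0.302%, 0.264% and 3.70% in healthy and 2.85%, 33.2% and 46.5% in tumour-bearing spleen. The healthy value of day 21 is 1 cell and lies above the tumour-bearing value of day 7 (log2 5.14 ± 1.32, adjusted p = 0.00184 in edgeR, exact permutation p = 0.2). Of the 1577 spleen cells of this class 846 were of a cluster led by Ltf, Ifitm6 and Ngp. Ly6g and Cd177 were among its 10 leading genes and cycling genes were not, so the name does not cover early precursors alone. With finer clusters (Leiden resolution 2) 518 spleen cells led by Ltf, Camp and Ngp lost the progenitor name because Ly6g and S100a8 were among their leading genes. Named progenitor-like cells of spleen then numbered 959 in place of 1577 (log2 6.36, adjusted p = 0.000562). Without the day 21 pair both remained called (adjusted p = 0.0299 and 0.00363), and without the day 14 pair edgeR called no class, with 2 at an unadjusted p under 0.05.

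The other 8 classes tested were not called. B cell-like cells were 50.8%, 60.3% and 37.0% in healthy and 45.2%, 18.0% and 6.14% in tumour-bearing spleen (log2 -1.47 ± 0.93, adjusted p = 0.395 in edgeR). T cell-like cells were 33.8%, 25.3% and 11.1% against 24.5%, 11.0% and 5.32% (log2 -0.90 ± 0.92, adjusted p = 0.668). Both were lower in tumour-bearing spleen at each of the 3 days. Monocyte-like cells were 1.21%, 1.41% and 14.8% against 4.22%, 6.70% and 11.2%, where the 14.8% is 4 of 27 cells (log2 1.31 ± 1.01, adjusted p = 0.49). As a share of the cells outside the neutrophil-like classes, monocyte-like cells were called higher (log2 2.39 ± 0.58, adjusted p = 0.00537), and the B cell-like and T cell-like shares differed by -0.46 ± 0.46 and -0.02 ± 0.50 on the log2 scale (adjusted p = 0.598 and 0.972). NK cell-like cells were 1.81%, 4.23% and 0% against 5.89%, 1.5% and 0.341%, with no common direction. The clusters were built on genes that include those tested above, so the shares are no independent support for them.

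**Figure D3:**
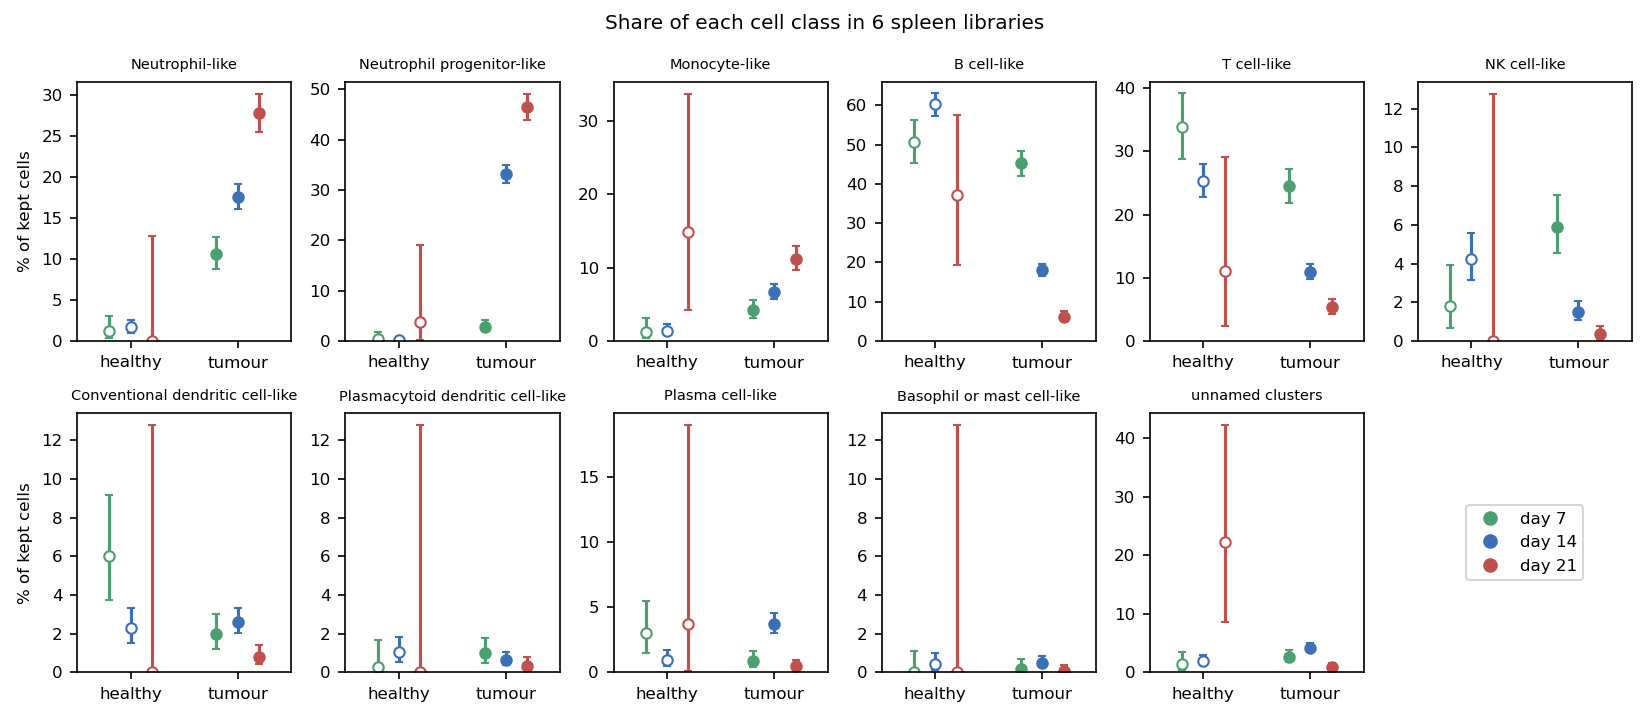
Share of kept cells (y axis, percent) of each cell class in the 3 healthy (open) and 3 tumour-bearing (filled) spleen libraries, coloured by day, with exact binomial 95% intervals that cover counting error only. Neutrophil-like cells reach 27.7% and progenitor-like cells 46.5% at day 21, and the 27 cells of the healthy day 21 library give wide intervals.

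Within the neutrophil lineage the make-up of the tumour-bearing libraries differed by day. The lineage held 5, 22 and 1 cells in healthy and 137, 1318 and 1087 cells in tumour-bearing spleen, or 13.5%, 50.7% and 74.2% of the latter's kept cells. An azurophil granule cluster, led by Ctsg, Elane, Mpo and Prtn3, held 12, 232 and 236 cells, which is 8.76% (95% interval 4.61 to 14.8), 17.6% (15.6 to 19.8) and 21.7% (19.3 to 24.3) of the lineage. A cycling cluster led by Camp, Ltf and Ngp held 2, 113 and 134 cells (1.46%, 8.57% and 12.3%). Another cluster, led by Ltf, Ifitm6 and Ngp without the cycling genes, held 15, 517 and 311 cells (10.9%, 39.2% and 28.6%). The neutrophil-like clusters took 78.8% of the lineage at day 7, 34.6% at day 14 and 37.4% at day 21. At days 7 and 14 these were mostly a cluster led by Sycp2, Il1b and Steap4 (103 of 108 and 436 of 456 cells). At day 21 that cluster held 25 of 406 cells, and 2 clusters with Saa3 among their leading genes held 231 and 149. With 1 library per day these differences have no test, and 2 of the clusters are mostly of 1 library in spleen, so day and library cannot be told apart. Median mitochondrial shares moved in the same order of days (9.50%, 6.57% and 2.75%), and their part was not tested.

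**Figure D4:**
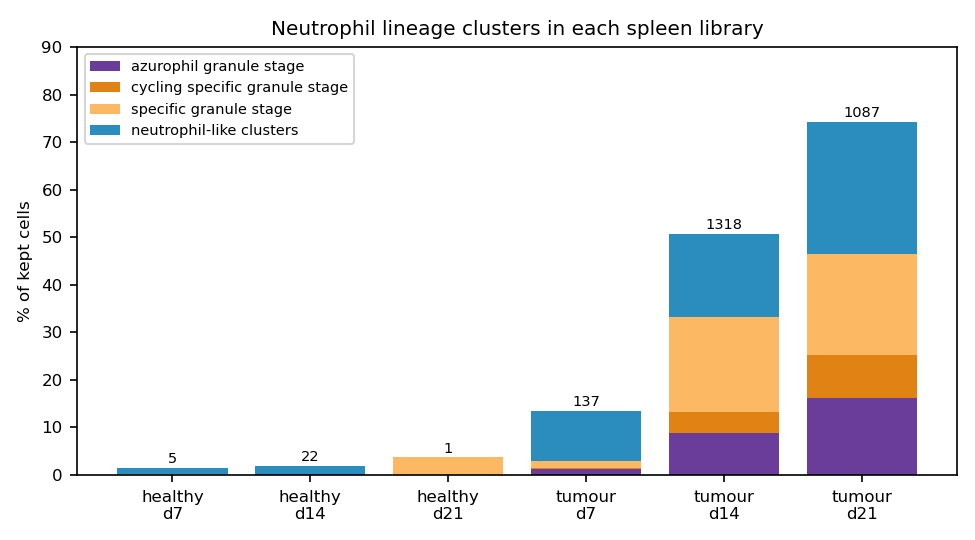
Neutrophil lineage clusters as a stacked share of kept cells (y axis, percent) in each spleen library, with the number of lineage cells above each bar. The 3 granule stages make up 3.70% of the healthy day 21 library, which is 1 cell, and more than the neutrophil-like clusters in the tumour-bearing libraries of days 14 and 21.

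The gene test was repeated on cells outside the neutrophil-like classes. There 169 genes (1.7%) were higher and 3 (0.0301%) lower, 1.73% of 9969 tested, and 138 of these 172 were among the 498. Neutrophil genes were still among them: 6 of 8 azurophil, 10 of 13 specific granule and 13 of 15 mature neutrophil genes were called. Prtn3 had a log2 fold change of 4.09 (adjusted p = 9.46e-05) and Lrg1 of 5.74 (4.49e-05) in these cells. Free RNA in the droplets and pairs of cells under 1 barcode can bring such transcripts to other cells, and their part was not tested. F13a1 (log2 4.37, adjusted p = 2.63e-06), Mcpt8 (5.88, 2.34e-06) and Il1b (3.07, 0.00102) were called in these cells too. Trac, Bcl11b and Cd28 were not called (adjusted p = 0.216, 0.219 and 0.318), and the medians of the T cell and B cell lists were -0.33 and -0.37, against 0.09 over all genes.

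Within single classes only days 7 and 14 had enough cells. The fits held 8 libraries for B cell-like and 10 for T cell-like cells, 4 of spleen in each. Each left 2 residual degrees of freedom, with a spread shared with the other tissues. In B cell-like cells 11 genes were higher (0.268%) and 1 lower (0.0243%) of 4107 tested, 0.292% in all, and in T cell-like cells 24 of 4850 were higher (0.495%) and none lower. The called genes with the smallest p were again mostly those of neutrophils. The haemoglobin gene Hbb-bs was also among them in B cell-like cells (log2 2.07 ± 0.38, adjusted p = 0.00497). It was called in T cell-like cells too (log2 2.05 ± 0.42, adjusted p = 0.0191), and Hba-a1 was called in B cell-like cells (log2 2.26, adjusted p = 0.0276). The heat shock gene Hspa1a had no UMI at day 7 and was called in B cell-like and T cell-like cells (adjusted p = 0.012 and 0.00421). S100a8 stood at 95.9 and 159 CPM in healthy and at 328 and 4041 CPM in tumour-bearing B cell-like cells (log2 3.55 ± 0.51, adjusted p = 0.000327), and at 57.6 and 397 against 1118 and 7787 CPM in T cell-like cells (log2 4.32 ± 0.32, adjusted p = 5.06e-08). The whole libraries of these days stood at 1415 and 1261 against 10130 and 70950 CPM. Ngp and 1100001G20Rik were called in both classes. Ifitm1 (log2 6.18) and Wfdc17 (5.74) were among the leading genes in T cell-like cells. These genes are not typical of lymphocytes, and the part of free RNA or cell pairs was not tested. The class genes Cd79a in B cell-like cells (1586 and 1693 against 1677 and 1279 CPM) and Cd3e in T cell-like cells (707 and 812 against 609 and 918 CPM) had log2 fold changes of -0.12 ± 0.23 and 0.02 ± 0.25. Iglv2, a lambda light chain segment, was the gene called lower in B cell-like cells (log2 -2.36 ± 0.41, adjusted p = 0.00282). Without the day as a block no gene was called in B cell-like cells, where 57 had an unadjusted p under 0.05, and 10 were called in T cell-like cells.

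Of 22 cell cycle genes 3 were called higher. All 22 fold changes were positive (median 1.21), against 55.0% of all genes tested. With library totals alone 21 were positive and the median was 0.76, where the median of all genes moved to -0.25. Rrm2, a subunit of the enzyme that makes deoxyribonucleotides, stood at 14.4, 2.53 and 50.8 CPM in healthy and at 25.5, 165 and 278 CPM in tumour-bearing spleen (log2 3.79 ± 0.75, adjusted p = 0.00562). Hmgb2, a chromatin protein, and Ccna2, cyclin A2, had log2 fold changes of 2.33 ± 0.47 and 2.47 ± 0.69 (adjusted p = 0.00671 and 0.0466). The day 7 tumour-bearing value of each of the 3 lay below the healthy value of day 21, which rests on 1, 26 and 1 UMIs. None of the 22 was called in edgeR without the day 14 pair, without the day 21 pair or in cells outside the neutrophil-like classes. In these settings 2, 9 and 2 were higher at an unadjusted p under 0.05, and DESeq2 called 2 over all libraries. The median of the 22 genes in cells outside the neutrophil-like classes was 0.0045, against 0.089 over all genes. One heat shock gene of 10 was called, Hspa1a, at 0, 14.4 and 0 against 6.70, 173 and 5.17 CPM (log2 4.02 ± 0.74, adjusted p = 0.00298). It was high in the tumour-bearing library of day 14 alone, and without that pair it was not called (adjusted p = 0.822). The immediate early genes Ier3 and Socs3, which can also respond to tissue dissociation, were called (log2 3.64 ± 0.60 and 3.04 ± 0.55), 2 of 18 of their list. Neither was called in edgeR without the day 14 pair (adjusted p = 0.115 and 0.0914). With shared barcodes kept Ier3 was not called (adjusted p = 0.0616). No gene was called in the lists of stroma and endothelium, epithelium, interferon response and class II antigen presentation, where 3, 1, 1 and 2 genes were lower at an unadjusted p under 0.05 and DESeq2 called 2, 0, 0 and 0.

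The last comparison asked where the tumour effect in spleen differed from that in the other tissues. Against lung 4 of 10943 genes (0.0366%) passed, all with a higher effect in spleen, and against scaffold 22 (0.201%), all with a higher effect in spleen. Gstm1, a glutathione transferase, rose in spleen by 3.78 ± 0.58 and had -1.15 ± 0.41 in lung and -0.14 ± 0.36 in scaffold on the log2 scale, a difference from lung of 4.92 ± 0.71 (adjusted p = 0.017). Esco2, which joins sister chromatids in dividing cells, had 3.88 ± 0.62 against -1.32 ± 0.50 (difference 5.20 ± 0.80, adjusted p = 0.0207), and Cd63, a granule and lysosome membrane protein, had 3.74 ± 0.56 against -0.35 ± 0.43 (difference 4.09 ± 0.71, adjusted p = 0.0437). In spleen itself, Cd63 stood at 1.81, 39.7 and 0 CPM in healthy and at 40.2, 262 and 405 CPM in tumour-bearing libraries. With shared barcodes kept its effect in spleen was 0.78 (adjusted p = 0.461) and its difference from lung 1.79 (adjusted p = 0.432). The S100a1 difference was 4.04 ± 0.65 (adjusted p = 0.0238). In that setting S100a1 (2.21, adjusted p = 0.324) and Esco2 (4.41, adjusted p = 0.227) did not differ from lung past the threshold, and Gstm1 did (3.76, adjusted p = 0.0217).

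Against scaffold the genes with the smallest adjusted p were Anxa2 (difference 3.97 ± 0.56, adjusted p = 0.0137), Mcpt8 (7.24 ± 1.17), Cd63 (4.07 ± 0.69), Ifitm2 (3.78 ± 0.64), the coagulation factor gene F10 (4.71 ± 0.80) and the light chain segment Igkv8-27 (8.19 ± 1.18), the last 5 at adjusted p = 0.0229. Igkv8-27 did not rise in spleen (log2 -1.75 ± 0.63, adjusted p = 0.166); its effect in scaffold was -9.94 ± 1.00. Anxa2 stood at 19.9, 60.8 and 50.8 CPM in healthy and at 231, 596 and 529 CPM in tumour-bearing spleen. With shared barcodes kept its effect in spleen fell from 3.81 to 1.23 (adjusted p = 0.36), that of F10 from 4.59 to 1.75 (adjusted p = 0.0724), and no gene differed from scaffold, with 846 at an unadjusted p under 0.05 and 69 called by DESeq2 on the main counts. These counts were not stable. Without the day 21 spleen pair 0 genes differed from lung and 2 from scaffold. Without the day 14 spleen pair 0 and 1 did, and with library totals alone 0 and 1. At an unadjusted p under 0.05 the counts against lung in these 3 settings were 1124, 635 and 1088, and DESeq2 called 31 genes against lung. Lung and scaffold libraries of the day left out stayed in. The healthy day 21 lung library among them had lost 81.4% of its UMIs as shared barcodes.

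**Figure D5:**
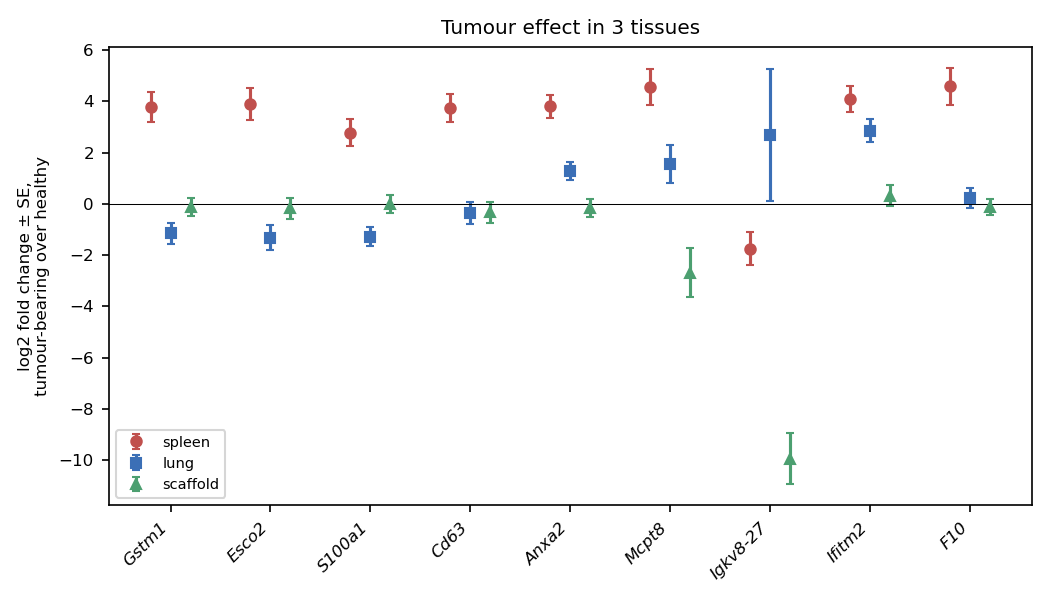
Tumour effect as log2 fold change ± SE (y axis) in spleen (circles), lung (squares) and scaffold (triangles) for the 9 genes named in the contrasts between tissues. For 8 of them spleen lies above both other tissues, and Igkv8-27 is below lung and above scaffold.

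A linear slope of the tumour effect over the 3 days passed the test in 2 genes (0.0183%), both light chain segments. Iglv2 stood at 229, 26.2 and 15790 CPM in healthy and at 768, 1.41 and 3.70 CPM in tumour-bearing spleen, a slope of -6.15 per week on the log2 scale (adjusted p = 0.00011). Its healthy value of day 21 is 311 of 19698 UMIs. Igkv16-104 stood at 0, 562 and 50.8 against 11.4, 0 and 0 CPM (fitted slope -16.9, adjusted p = 0.00214). This slope was fitted over libraries without a UMI, and the values show no steady change, since the healthy library of day 14 was the highest. No granule, cytokine or lymphocyte gene of the lists passed this test, which could not be run without the day 21 pair because 2 days leave the slope no spread of its own.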

How the data were processed

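The authors deposited a table of raw UMI counts for each library, with genes against cell barcodes. Per the submitters' processing notes the genome build was mm10 and Seurat version 2 was used; which aligner, annotation, bead repair and cell calling were used is not given in the sources used here. About 1000 beads with a cell were amplified in each library, as the labels state.

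The filter on barcodes asked for at least 200 genes and a mitochondrial part of UMIs below 20 percent, and a barcode in 2 or more libraries of a day stayed only where its UMIs were at least 5 times the next. Sums per library entered edgeR 4.0.16 (R 4.3.3), after filterByExpr and TMM scaling, for a quasi-likelihood F test. The model took the 18 libraries, each combination of tissue and day as a block, and 1 tumour coefficient in every tissue (6 residual degrees of freedom). P-values were adjusted by Benjamini-Hochberg over all genes tested. Day, as the labels give it, is the pair: deviations of the 2 spleen libraries of a day correlated across genes at 0.266, 0.0116 and 0.213, and those of different days at -0.23 to 0.132. Cells were scaled to 10000 counts and clustered jointly with scanpy 1.11.5 (2000 variable genes, 30 components, 15 neighbours, Leiden resolution 1 with leidenalg 0.10.2). A name needed 3 markers raised by at least 1.5-fold and was withheld where another class had more, or at least 2, markers among the 10 leading genes; these thresholds were set after the clusters were seen. Doublets were not removed. Shares carry Clopper-Pearson intervals (exact binomial, 95 percent), which, like the floor of 3 UMIs over a group, cover counting error only.

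Named genes are the 16 highest and 12 lowest called genes with at least 30 spleen UMIs and one direction at days 7 and 14, the 4 called members of each list with the smallest adjusted p, 8 defining genes, and in other contrasts the 6 called genes per direction with the smallest adjusted p. The comparison, the members and the 33 gene lists were chosen with earlier results of these data known. Of the symbols in lists and markers, 402 matched directly, 5 by an older symbol and 11 not. The code was tested on simulated data. Alternatives were DESeq2 1.42.0, library totals, no block, no filter, other cell filters, shared barcodes kept, spleen alone and Leiden resolution 2. The spleen pair of each day was also left out in turn.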

Additional observations from a re-analysis of the deposited data

Results flagged for a closer look

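The tumour effect in spleen was tested against that in lung and scaffold and along the days, and the genes that passed are listed with the difference on the log2 scale. Against lung these were Gstm1 at 4.92, Esco2 at 5.20, S100a1 at 4.04 and Cd63 at 4.09. Against scaffold the genes with the smallest adjusted p were Anxa2 at 3.97, Mcpt8 at 7.24, Igkv8-27 at 8.19, Cd63 at 4.07, Ifitm2 at 3.78 and F10 at 4.71. The Igkv8-27 difference comes from a fitted fall of 9.94 in scaffold and not from a rise in spleen, and DESeq2 gave it the other sign, -2.37. Along the days Iglv2 had a slope of -6.15 and Igkv16-104 one of -16.9 per week, and both are light chain segments. Igkv16-104 was abundant in the healthy library of day 14 (562 CPM, 666 UMIs). Iglv2 was highest in the healthy library of day 21 (15790 CPM, 311 UMIs). It also stood at 768 CPM (1146 UMIs) in the tumour-bearing and at 229 CPM in the healthy library of day 7.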

How the results depend on the processing

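The 498 called genes of spleen became 247 with library totals alone, 797 when only genes with no UMI were left out, and 172 in cells outside the neutrophil-like classes. They became 150 with shared barcodes kept and the day 21 pair left out, and 123 in cells outside the neutrophil-like classes without that pair. Leaving out the spleen pair of 1 day gave 38 (day 14) to 822 (day 7). Of the genes of the lists, 78 were called, 23 to 109 with 1 day left out, and 47 with shared barcodes kept and day 21 left out. Without the replicate block, that is the day, 394 were called, and 47 of the 72 named called genes. All of the named called genes that could be fitted kept their direction in each setting. With spleen alone, other filters on cells and DESeq2 the total count stayed within 1.5 times, but its split did not. Genes called higher, 476 in the main fit, were 380 with spleen alone and 444 with at least 400 genes per barcode. They were 384 under 10 percent mitochondrial UMIs and 436 in DESeq2. Genes called lower, 22 in the main fit, were 56, 53, 37 and 88 in the same order.

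Against lung, the 4 genes became 0 with no replicate block and with library totals alone, 2 with shared barcodes kept, 123 without a filter and 31 in DESeq2, and 0 to 4 with 1 day left out. With no replicate block 1254 genes had an unadjusted p under 0.05. Against scaffold, the 22 became 0 with shared barcodes kept (846 at an unadjusted p under 0.05), 2 with no replicate block, 1 with library totals alone, 212 without a filter, 38 with at least 400 genes per barcode and 69 in DESeq2, and 1 to 81 with 1 day left out. The 2 genes along the days became 65 without a filter. In B cell-like cells the 12 genes became 0 with no replicate block and 5 to 34 with 1 day left out, and in T cell-like cells the 24 became 10 and 8 to 50; with 1 day left out a single spleen pair remains, assumed to vary like the other tissues. Called classes went from 2 to 1 among cells outside the neutrophil-like classes, where 8 remain to be tested, and to 0 to 2 with 1 day left out.

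Signs turned only for values that were not called, beside Igkv8-27 against scaffold (-2.37 in DESeq2). With 1 day left out the log2 fold changes ranged from -0.51 to 3.03 for Hba-a1, -0.77 to 2.89 for Hbb-bs, -12.22 to 2.15 for Igkv16-104 and -0.082 to 0.68 for Kit, all 4 turning without day 14. Under 10 percent mitochondrial UMIs Hba-a1 (-0.37) and Hbb-bs (-0.36) turned. Kit was also negative with library totals (-0.11), at least 400 genes (-0.11), shared barcodes kept without day 21 (-0.073), and outside the neutrophil-like classes with (-0.18) and without day 21 (-0.26). Shared barcodes kept turned Arg1 (-0.76), Pf4 (-0.70) and the T cell-like share (0.027), and without day 21 Arg1 (-1.16). DESeq2 turned Arg1 (-1.43) and Pf4 (-0.65), and at least 400 genes turned Iglv2 (0.039). Outside the neutrophil-like classes C1qa was 0.54, and without day 21 C1qa was 0.20 and Iglv2 0.73. Class shares with 1 day left out ranged from -1.16 to 0.38 for conventional dendritic, -1.26 to 1.73 for NK, -2.13 to 0.80 for plasma and -0.52 to 1.73 for plasmacytoid dendritic cell-like cells. With no replicate block NK (-0.032), plasmacytoid dendritic (-0.068) and basophil or mast cell-like shares (-0.0061) turned, and outside the neutrophil-like classes conventional dendritic (0.14) and plasma cell-like shares (0.69). Arg1 gave no value where no UMI was left. The causes were not tested. Depth limits the healthy library of day 21 most, where 1 UMI is 50.8 CPM.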

Other observations

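Barcodes alike in their first 11 bases, which in Drop-seq can come from 1 bead, were frequent at day 7 only. Counting them once would take out 28.1% of the kept barcodes of the healthy and 20.9% of those of the tumour-bearing spleen at day 7, and at most 0.205% in the other spleen libraries. The neutrophil-like and neutrophil progenitor-like shares stayed called when such barcodes were counted once.

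A small cluster without a name combined haemoglobin genes (Hba-a1, Hbb-bs, Hbb-bt) with the red pulp macrophage genes Vcam1, Spic and Fcna among its 10 leading genes. It held 136 spleen cells, 3, 12 and 3 in healthy and 24, 84 and 10 in tumour-bearing libraries of days 7, 14 and 21. Its share was 0.906%, 1.06% and 11.1% of healthy and 2.36%, 3.23% and 0.683% of tumour-bearing cells (log2 0.13 ± 1.15, adjusted p = 0.951 in edgeR).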
